A study of Homo sapiens with 5 samples.

Results

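ChIP-seq peaks of Nrf2 and HIF1α were examined at 9 genes of the p53 response and the cell cycle, CDKN1A, MDM2, GADD45A, GADD45B, BBC3, BAX, TP53INP1, CCND1 and CDKN1B. They were given by symbol, with no threshold on a measured value, and all 9 have an entry in the annotation, which holds 20163 coding genes. Each locus was the gene body with 50 kb on either side on hg19, 102 to 137 kb long, and these loci held 68 of the 29781 peaks in the lists. The chromatin came from BEAS-2B cells, human bronchial epithelial cells immortalized with an adenovirus and SV40 hybrid whose large T antigen binds p53. All cells were starved of serum overnight and then received either no inorganic arsenic (iAs), as control, or 1 μM iAs for 6 h. There was 1 library for each antibody and condition, so no difference below was tested and no value carries a replicate error. Peaks are listed by their first and last base without a height, and their read depth is unknown. Binding of p53 itself and transcript levels were not measured in these libraries, and the sample of input DNA has no peak list here.

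The p53 protein is a transcription factor that is stabilized by DNA damage and other stress and that switches on genes for cell cycle arrest, repair and cell death. CDKN1A and CDKN1B encode p21 and p27, inhibitors of the kinases that drive cells through the cycle, and CCND1 encodes cyclin D, which activates such kinases on entry into the cycle. Nrf2 binds antioxidant response elements with small Maf proteins in the response to oxidants and electrophiles, and HIF1α binds hypoxia response elements with ARNT when its degradation is blocked.

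The sequences on which the results below turn were read from hg19 and are printed 5' to 3'. They were chosen after the peaks had been seen. Capitals mark matches on either strand to TGACTCA (the AP-1 element, which forms part of many antioxidant response elements), TGACNNNGC (the antioxidant response element core), ACGTG (the hypoxia response element core) or GCGTG (its common variant). TGACTCA followed by GC matches both of the first motifs, and CACGTG counts as 2 matches to ACGTG because it reads the same on both strands. A match describes the letters only and is no evidence of binding to them. Outside the CDKN1A stretch at the start of the gene, none of the printed bases lies in an annotated UTR.

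In intron 1 of MDM2 (chr12:69202639-69202747, plus strand), shown because its TGACTCAGC lies in peaks of 3 libraries:
MDM2 intron 1: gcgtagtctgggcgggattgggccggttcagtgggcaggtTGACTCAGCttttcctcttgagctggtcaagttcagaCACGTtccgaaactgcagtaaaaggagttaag
Around GADD45A (chr1:68148405-68148471, chr1:68149168-68149234 and chr1:68152477-68152543, plus strand), shown because each of the 3 Nrf2 peaks in control cells holds 1 match to TGACTCA:
GADD45A upstream, distal: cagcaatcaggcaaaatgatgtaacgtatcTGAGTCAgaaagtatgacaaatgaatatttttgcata
GADD45A upstream, proximal: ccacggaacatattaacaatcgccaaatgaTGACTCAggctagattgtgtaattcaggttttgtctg
GADD45A intron 3: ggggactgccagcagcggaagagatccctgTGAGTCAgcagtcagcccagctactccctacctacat
In the BAX locus, upstream of the neighbouring FTL gene (chr19:49467159-49467247) and at the BAX promoter (chr19:49457972-49458058, plus strand), shown because the first lies under peaks of both factors and the second holds part of a cluster of CACGTG:
FTL upstream: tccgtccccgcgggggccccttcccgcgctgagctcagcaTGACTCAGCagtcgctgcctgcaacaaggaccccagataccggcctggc
BAX promoter: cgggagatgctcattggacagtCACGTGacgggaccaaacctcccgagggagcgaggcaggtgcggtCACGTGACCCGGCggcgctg
At CDKN1B (chr12:12878268-12878352 downstream and chr12:12870087-12870151 at the promoter, plus strand), shown because HIF1α peaks of both conditions cover them:
CDKN1B downstream: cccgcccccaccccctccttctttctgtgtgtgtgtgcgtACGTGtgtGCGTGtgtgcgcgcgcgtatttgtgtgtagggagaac
CDKN1B promoter: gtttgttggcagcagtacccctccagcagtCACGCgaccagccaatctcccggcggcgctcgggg
Upstream of CCND1 (chr11:69455325-69455409 and chr11:69451399-69451463, plus strand), shown for the CACGTG in HIF1α peaks with iAs:
CCND1 promoter: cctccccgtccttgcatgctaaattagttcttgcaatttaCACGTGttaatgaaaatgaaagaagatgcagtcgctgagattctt
CCND1 upstream: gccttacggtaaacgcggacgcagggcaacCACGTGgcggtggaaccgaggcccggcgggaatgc
At CDKN1A (chr6:36646633-36646662, overlapping an annotated UTR, and chr6:36648288-36648386 in intron 1, plus strand), shown for the repeated GCGTG and for a TGACTCA under a HIF1α peak with iAs:
CDKN1A start: aaGCGTGcccGCGTGtgtccctGCGTGtcc
CDKN1A intron 1: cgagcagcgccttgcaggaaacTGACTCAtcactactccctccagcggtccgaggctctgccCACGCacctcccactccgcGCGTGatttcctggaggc
Upstream of BBC3 (chr19:47735717-47735813, minus strand, along the gene), shown because this Nrf2 peak holds ACGTG but neither TGACTCA nor TGACNNNGC:
BBC3 upstream: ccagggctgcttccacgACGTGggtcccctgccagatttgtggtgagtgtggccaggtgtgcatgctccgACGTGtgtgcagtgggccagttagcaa

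The lists held 3204 Nrf2 peaks in control cells and 7743 with iAs, and those of HIF1α held 6008 and 12826. In the same order the 9 loci held 5, 13, 10 and 40 peaks. When each list was reduced to its 3204 widest peaks, the loci held 5, 6, 5 and 10. In these reduced lists 3, 4, 5 and 6 of the 9 genes had a peak, against 20.0, 20.4, 31.5 and 33.9% of all coding genes. In the full lists Nrf2 had a peak at 3 of the 9 genes in control cells and at 6 with iAs. The shares of all coding genes searched in the same way were 20.0% and 35.0%. The genes with an Nrf2 peak only with iAs were BBC3, CDKN1B and TP53INP1. At BBC3 and CDKN1B this peak was 181 and 197 bp wide, and 100% and 90.1% of the list were at least as wide. At TP53INP1 it lay nearest to NDUFAF6. HIF1α had a peak at 7 of the 9 in control cells and at 9 of 9 with iAs, against 45.5% and 68.6% of all coding genes. The mean number per locus was 0.556, 1.44, 1.11 and 4.44 peaks in the 4 libraries, and the mean over all coding genes was 0.274, 0.639, 0.785 and 1.98. The median per locus was 0, 1, 1 and 4, against 0, 0, 0 and 1 for all coding genes, and GADD45A alone held 3 of the 5 Nrf2 control peaks. Loci differ in length and gene density, and 19 of the 68 peaks lay nearest to the start site of another coding gene, of which there were 8 (LMNB2, CCDC9, INAFM1, FTL, GYS1, NDUFAF6, CCNE2 and LTO1).

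**Figure D1:**
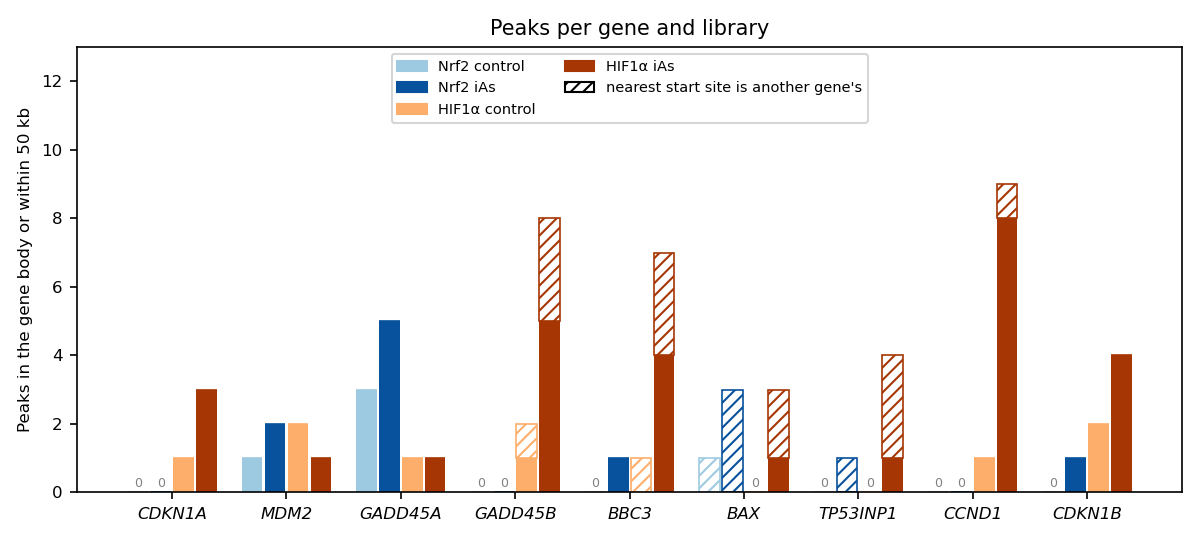
Number of peaks in the gene body or within 50 kb (vertical axis) for each of the 9 genes in the 4 libraries, 1 library per bar. Hatched bars are peaks nearest to the start site of another gene. With iAs, CCND1 had 9 HIF1α peaks, the highest bar, and GADD45A had 5 Nrf2 peaks. With intervals less than 500 bp apart merged, HIF1α with iAs had 4 at CCND1, 5 at GADD45B and 6 at BBC3.

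Peaks close to the transcription start site (TSS) of the canonical transcript were mostly those of HIF1α with iAs. Within 1 kb of the TSS, HIF1α had a peak at 3 of the 9 genes in control cells (CDKN1A, MDM2 and CDKN1B) and at 9 of 9 with iAs, against 16.7% and 42.6% of all coding genes. Nrf2 had one at 1 gene in control cells (MDM2) and at 2 with iAs (MDM2 and GADD45A), against 2.32% and 5.17%. The count of 9 moved with the length of the list. In the lists of 3204 widest peaks HIF1α had a peak within 1 kb at 1 gene in control cells and at 5 with iAs (CDKN1A, GADD45A, GADD45B, CCND1 and CDKN1B), against 10.4% and 15.2% of coding genes. In the same reduced lists Nrf2 peaks lay within 1 kb of 1 gene in control cells and 2 with iAs, the same genes as in the full lists.

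**Figure D2:**
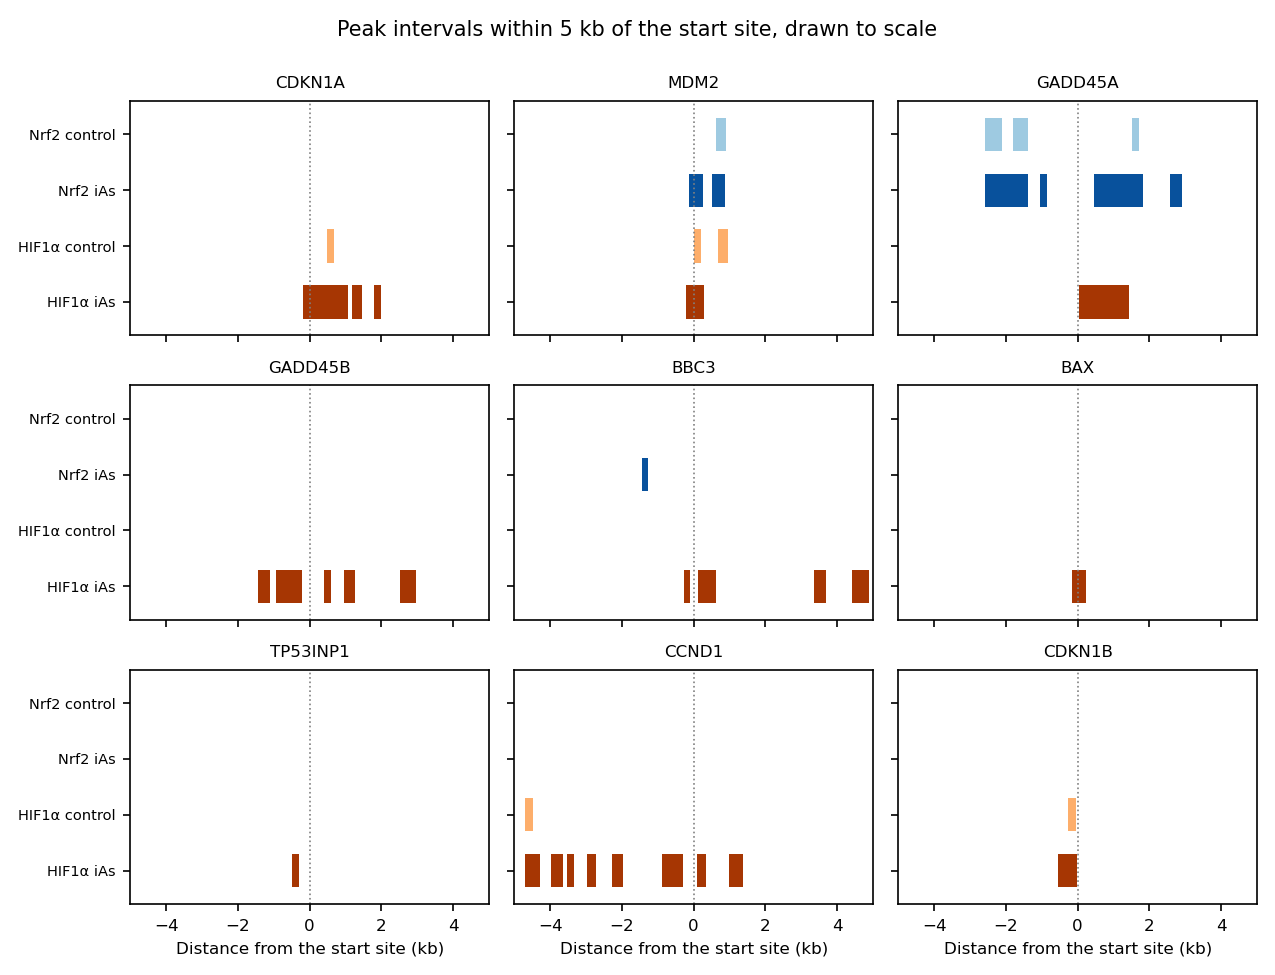
Peak intervals within 5 kb of the start site of each gene, drawn to scale along the direction of transcription (horizontal axis, kb; the dotted line is the start site), with 1 row per library. HIF1α intervals with iAs (dark orange) reach within 1 kb of all 9 start sites, whereas Nrf2 intervals (blue) appear in this window at MDM2, GADD45A and BBC3.

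Peaks with iAs were compared with those of the same factor in control cells. For Nrf2, 9 of the 13 iAs peaks lacked an overlap with a control peak, against 62.0% of the list, and 33 of the 40 HIF1α peaks with iAs overlapped no HIF1α control peak, against 75.2%. If control peaks lying no more than 1 kb away were also accepted as counterparts, 4 of 13 and 27 of 40 lacked one. The shares of the whole lists under this looser rule were not computed, and those above do not apply to it. In the opposite direction, 0 of the 5 Nrf2 control peaks lacked an overlap with iAs (5.37% of the list). For HIF1α, 3 of the 10 control peaks lacked one (46.3% of the list). These 3 HIF1α peaks lay in intron 1 of MDM2 and downstream of GADD45A and GADD45B.

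CDKN1A, the gene for p21, had no Nrf2 peak in its locus in either condition. The nearest Nrf2 peak with iAs was centred 77.2 kb downstream of the TSS. HIF1α had 1 peak in control cells, 191 bp wide and centred at 586 bp in intron 1 (positions are from the TSS along the gene, negative upstream). With iAs, HIF1α had 3 peaks, which were 1242, 287 and 188 bp wide and centred at 444, 1318 and 1889 bp. The first of these ran across the TSS and contained the control peak, and at 6.5 times its width it was among the widest 1.33% of the list. It held 8 matches to GCGTG, 3 of them in the stretch printed for the start of the gene. At least 8 were found in 0.522% of HIF1α peaks with iAs. That cutoff was this peak's own count, and the share was not adjusted for peak width. TGACTCA lay in 2 of the 3 peaks with iAs, including the stretch printed for intron 1.

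CDKN1B, the gene for p27, had peaks at the promoter and beyond the end of the gene. At the promoter, HIF1α had a peak in control cells, 218 bp wide at -153 bp, and with iAs, 535 bp wide at -290 bp. Beyond the 3' end, HIF1α had a control peak 352 bp wide at 8028 bp, and with iAs a peak 1040 bp wide at 8214 bp with further peaks at 6635 and 7144 bp. Both control peaks were therefore called again with iAs, and both were wider. Nrf2 had no peak in control cells and 1 with iAs, 197 bp wide at 8086 bp, which lay within the HIF1α peaks of both conditions. This downstream interval, printed above, holds ACGTG and GCGTG within a run of alternating T and G, and no TGACTCA or TGACNNNGC.

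CCND1, the gene for cyclin D1, had peaks of HIF1α in both conditions and none of Nrf2. The nearest Nrf2 peak with iAs was centred at -144 kb. In control cells HIF1α had 1 peak, 223 bp wide at -4602 bp. With iAs there were 9, of which 8 lay between -4495 and 1178 bp and the other lay at 34199 bp, 2 bp from the start site of LTO1. The 8 were 189 to 587 bp wide. The peak at -4495 bp overlapped the control peak, and the widest, at -577 bp, carried the CACGTG printed for the promoter. Intervals less than 500 bp apart were merged in an alternative count, which left 4 HIF1α intervals with iAs at this locus, the longest 2722 bp, against 6 at BBC3 and 5 at GADD45B, so the number 9 partly counts pieces of one stretch.

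MDM2, the ubiquitin ligase that binds p53 and marks it for degradation, was the 1 gene at which all 4 libraries had a peak within 1 kb of the TSS. Nrf2 had 1 peak in control cells, 288 bp wide at 754 bp in intron 1. With iAs, Nrf2 had a peak 364 bp wide at 701 bp that overlapped it and a further peak 405 bp wide at 66 bp, which covered the TSS. HIF1α had peaks of 201 bp at 101 bp and 278 bp at 821 bp in control cells, and 1 peak with iAs, 491 bp wide at 33 bp. In intron 1, Nrf2 was thus called in both conditions and HIF1α in the control list alone. At the canonical TSS, HIF1α was called in both conditions and Nrf2 in the iAs list alone. Each of these peaks in intron 1 also covered another annotated start of MDM2, so both places hold annotated starts of the gene. These places lie close together, and with intervals less than 500 bp apart merged each of the 4 libraries had 1 interval at MDM2, of 1020 bp for Nrf2 with iAs and 960 bp for HIF1α in control cells. The TGACTCAGC printed for intron 1, centred at 726 bp, lay in the Nrf2 peaks of both conditions and in the HIF1α control peak.

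GADD45A, a stress-induced growth arrest and DNA repair factor, was the gene with the most Nrf2 peaks. In control cells Nrf2 had peaks of 476 bp at -2335 bp, 412 bp at -1584 bp and 207 bp at 1616 bp in intron 3. With iAs it had 5. A peak of 1222 bp at -1984 bp spanned both upstream control peaks, and a peak of 1342 bp at 1138 bp contained the intronic one. The others were 181 bp wide at -957 bp, 338 bp wide at 2746 bp in the 3'-UTR and 507 bp wide at -38149 bp. All 3 control peaks were thus found again inside wider peaks with iAs. HIF1α had 1 peak in each condition, 275 bp wide at 15638 bp in control cells and 1407 bp wide at 735 bp with iAs. The latter was among the widest 0.702% of its list and overlapped the Nrf2 peak with iAs at 1138 bp. Each of the 3 control Nrf2 peaks held the TGACTCA printed above. In intron 3 the match lay 10 bp from the peak centre, and at the distal upstream peak it lay at -111 bp from it.

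GADD45B, a relative of GADD45A, had no Nrf2 peak in its locus, and the nearest with iAs was centred at 56.8 kb. HIF1α had 2 peaks in control cells, 261 bp wide at -12964 bp and 286 bp wide at 15521 bp. With iAs there were 8, of which 5 lay between -1264 and 2740 bp around the gene and 3 lay between -19687 and -13001 bp, nearest to the start site of LMNB2. The widest was 720 bp at -582 bp. No control peak lay within 10 kb of the GADD45B start site, and the control peak at 15521 bp had no overlap with iAs. The 2 GADD45 genes therefore differed in their lists, GADD45A with peaks of both factors at the gene and GADD45B with peaks of HIF1α alone.

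BBC3 encodes PUMA and BAX encodes a pore-forming protein of the BCL2 family, both of which promote apoptosis through mitochondria. At BBC3, Nrf2 had no control peak and 1 peak with iAs, 181 bp wide at -1361 bp and 116 bp from another annotated start of the gene. HIF1α had 1 control peak, 284 bp wide at -13101 bp and nearest to CCDC9. With iAs there were 7 HIF1α peaks, of which those at -186, 362, 3524 and 4660 bp were nearest to BBC3, and 191 to 505 bp wide. The other 3 lay at -13109, -25276 and -42219 bp, nearest to CCDC9 or INAFM1. The peaks nearest to BBC3 were thus all called with iAs, and the 1 HIF1α control peak in the locus, with a counterpart of 304 bp with iAs, lay nearest to a neighbour.

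At BAX, the peaks of Nrf2 lay near FTL, the gene of the ferritin light chain and a known Nrf2 target, rather than near BAX. Nrf2 had 1 control peak, 1393 bp wide at 9260 bp, among the widest 0.312% of its list. With iAs the same place had a peak 1645 bp wide, and further peaks of 266 and 255 bp lay at 7733 and 10351 bp. All of these were nearest to the start site of FTL, so the BAX start itself had no Nrf2 peak in either condition. HIF1α had no control peak in the locus. With iAs it had peaks of 391 bp at 32 bp, across the BAX start, 403 bp at 9043 bp, within the Nrf2 peak near FTL, and 462 bp at 38453 bp, nearest to GYS1. The TGACTCAGC printed for FTL lay in the peaks of both factors there. The peak at the BAX start held CACGTG at 4 places, of which 2 are printed, a number reached by 0.0546% of HIF1α peaks with iAs, whereas 11.5% held at least 1. The cutoff of 4 was this peak's own count, and the share was not adjusted for peak width. At least 4 were also found in 0.0666% of HIF1α control peaks. CACGTG was searched after the data had been seen.

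TP53INP1, which encodes a cofactor of p53 in the response to stress, had no control peak of either factor in its locus. With iAs, Nrf2 had 1 peak, 408 bp wide at -42114 bp and nearest to NDUFAF6. HIF1α had 4 peaks with iAs. The peak at -403 bp, 191 bp wide, was the 1 nearest to TP53INP1, and those at 52801, 53390 and 54064 bp were nearest to CCNE2, the gene of cyclin E2. Of the 5 peaks in this locus, 1 therefore lay nearest to the gene itself, and 95.3% of HIF1α peaks with iAs were at least as wide as it.

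**Figure D3:**
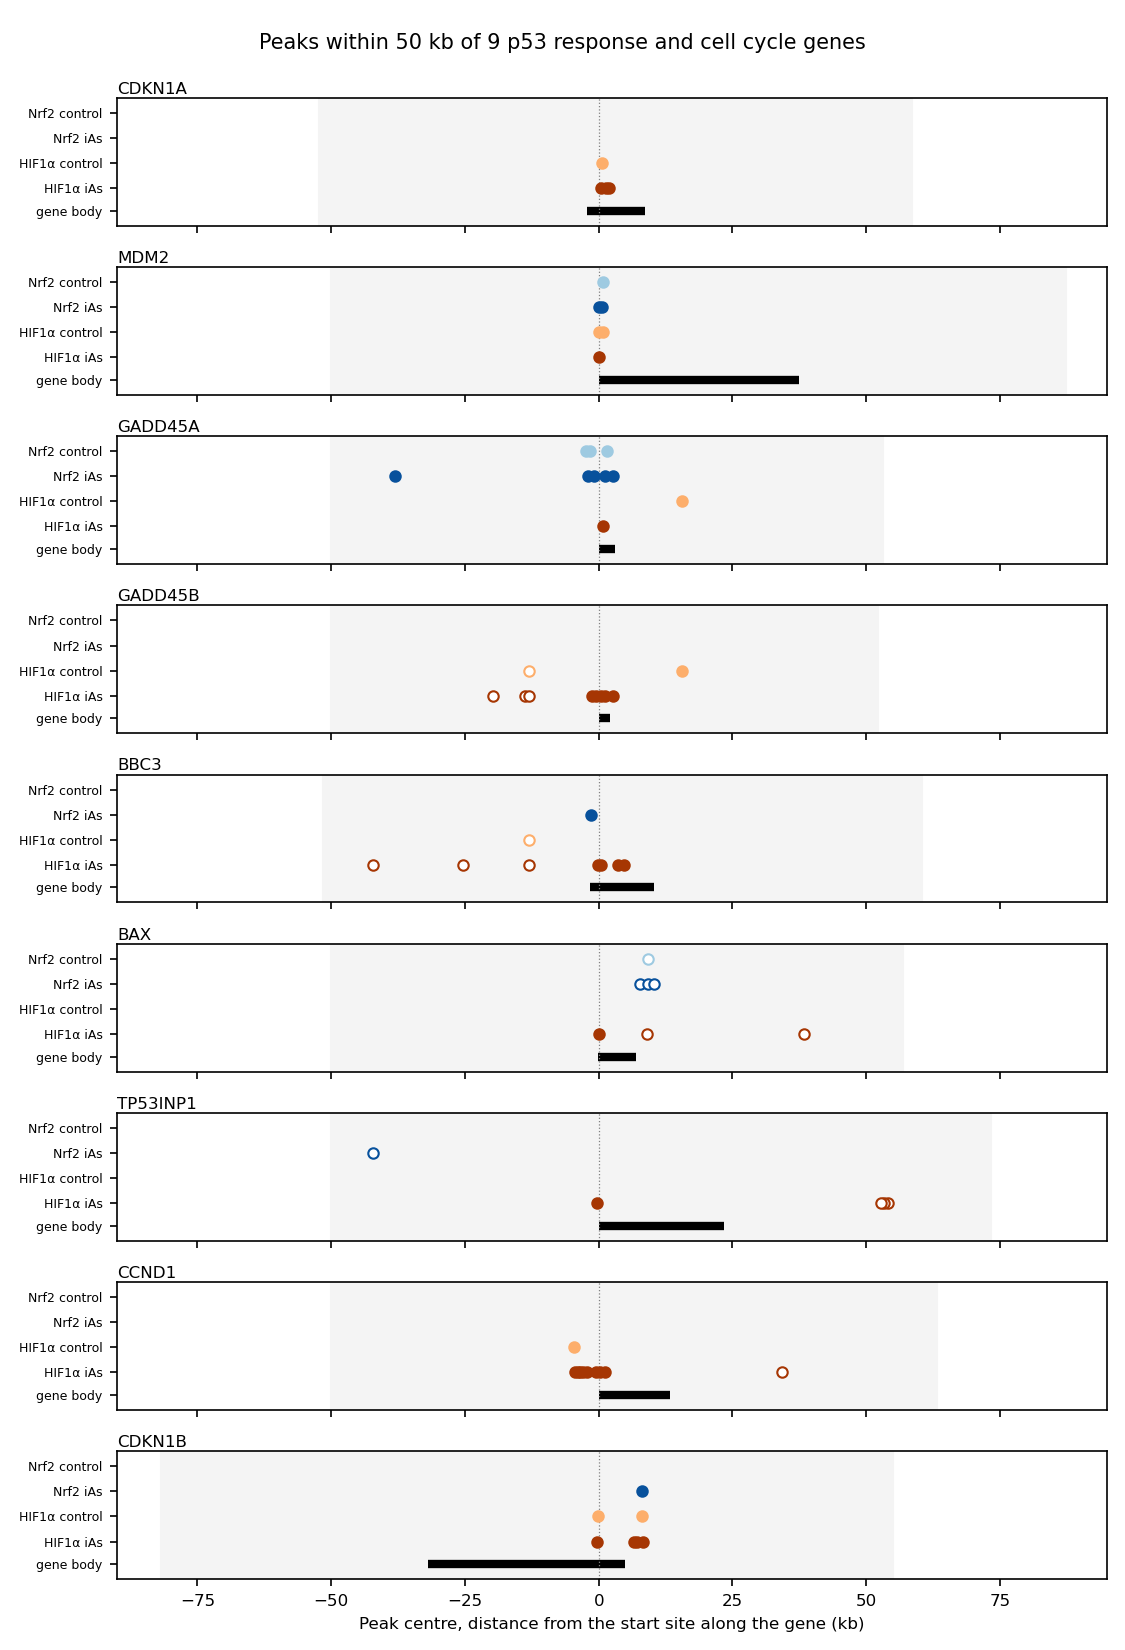
Centres of the 68 peaks from the start site along each gene (horizontal axis, kb), with 1 row per library, the gene body as a black bar and the searched locus in grey. Open circles are the 19 peaks nearest to the start site of another gene, which lie mostly away from the start sites.

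Overlap of the factors was seen in 4 of the 9 loci, and the share of all coding genes with such an overlap was not computed. In the BAX locus the overlapping peaks lay nearest to FTL and not to BAX. Of the 13 Nrf2 peaks with iAs, 4 overlapped a HIF1α peak with iAs (MDM2 at the TSS, GADD45A, CDKN1B downstream, and the peak near FTL), against 14.7% of the list. In control cells 1 of the 5 Nrf2 peaks overlapped a HIF1α peak, in intron 1 of MDM2, against 27.7%. Only MDM2 had such an overlap in both conditions, at different places in the gene.

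Every peak in these loci that was called in both conditions was wider with iAs, and the TP53INP1 locus had no such peak. All 5 Nrf2 control peaks overlapped a wider peak with iAs, against 92.2% of such peaks in the list. The ratio of widths ran from 1.18 near FTL to 6.48 in intron 3 of GADD45A. Both upstream control peaks of GADD45A were paired with the same iAs peak of 1222 bp. That peak spans both, so it is wider than either by construction. All 7 HIF1α control peaks with a counterpart overlapped a wider one, against 77.4%, with ratios from 1.07 near CCDC9 to 6.5 at CDKN1A. The shares in the whole lists were also high. The methods describe down-sampling of tags to the smallest sample of a group, but whether these lists were called after that step is not given in the sources used here, and the part of read depth in the widths was not tested. The median width of peaks in the 9 loci was 412, 364, 268 and 397 bp for Nrf2 control, Nrf2 with iAs, HIF1α control and HIF1α with iAs, and in the whole lists it was 309, 333, 276 and 340 bp.

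**Figure D4:**
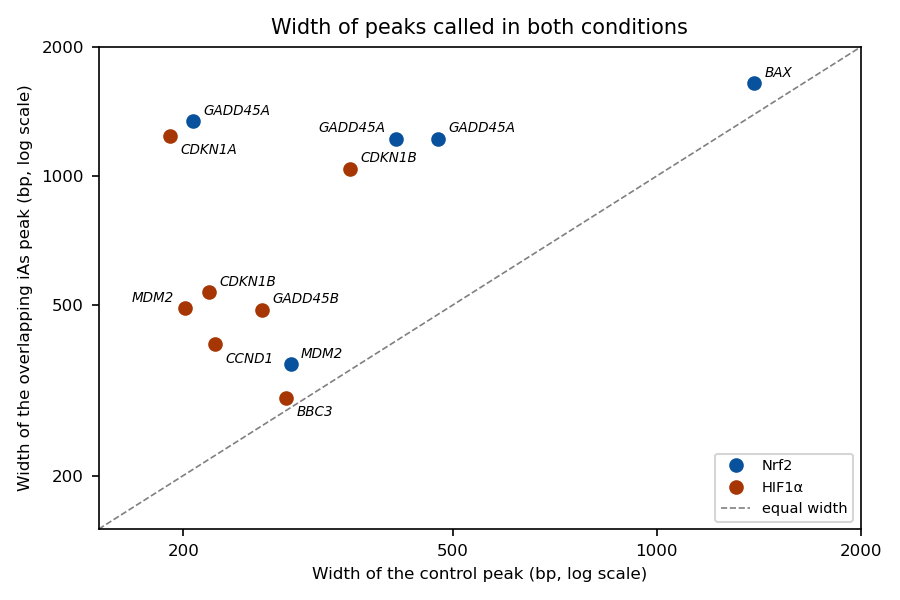
Width of each control peak (horizontal axis, bp, log scale) against the width of the overlapping peak with iAs (vertical axis, bp, log scale) for Nrf2 (blue) and HIF1α (dark orange). Every point lies above the dashed line of equal width, with CDKN1A and GADD45A farthest from it and BBC3 nearest to it. Both upstream control peaks of GADD45A are paired with the same iAs peak.

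In Nrf2 peaks, matches to the Nrf2 motifs within 100 bp of the peak centre were not more frequent at these genes than in the lists. TGACTCA lay in 2 of 5 Nrf2 control peaks (47.8% of the list) and in 2 of 13 with iAs, or 15.4% (Wilson 95% confidence interval 4.33 to 42.2) against 38.3%. TGACNNNGC lay in 1 of 5 (42.4%) and 3 of 13 (31.6%). When the whole peak was searched, TGACTCA was found in 5 of 5 and 6 of 13, against 58.4% and 51.5%, so most matches at these genes lay away from the centre. ACGTG, in contrast, was found within 100 bp of the centre in 6 of the 13 Nrf2 peaks with iAs, or 46.2% (23.2 to 70.9), against 12.4% of the list. In the whole peak it was also found in 6 of 13, against 22.8%, a share just below that interval. Some of these peaks lay nearest to FTL. Of the HIF1α peaks with iAs, 6 of 40 held ACGTG and 14 of 40 held GCGTG, against 19.6% and 41.3%. TGACTCA was found in 5 of these 40, or 12.5% (5.46 to 26.1), against 2.39%. Some of these 5 lay nearest to another gene, to INAFM1 in the BBC3 locus and to FTL in the BAX locus. In HIF1α control peaks the shares were 2 of 10 for ACGTG, 4 of 10 for GCGTG and 2 of 10 for TGACTCA, against 23.6%, 33.3% and 14.5%. The intervals cover the counting of peaks only, and peaks of 1 gene or of 2 libraries can share a match, as at MDM2.

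A wider list of 44 genes from the same pathways, 22 of the p53 network and 22 of the cell cycle, was searched in the same way. In the order Nrf2 control, Nrf2 with iAs, HIF1α control and HIF1α with iAs, 10, 18, 25 and 43 of the 44 had a peak within 50 kb, or 22.7, 40.9, 56.8 and 97.7%, against 20.0, 35.0, 45.5 and 68.6% of all coding genes. With the 3204 widest peaks of each list the counts were 10, 9, 19 and 21, against 20.0, 20.4, 31.5 and 33.9% of all coding genes. Nrf2 thus no longer had more genes of this list with iAs than in control cells, and its shares of all coding genes were also close. The p53 network gave 5, 6, 12 and 21 of 22, and the cell cycle genes 5, 12, 13 and 22 of 22. Within 1 kb of the TSS, 1, 3, 17 and 34 of the 44 had a peak, or 2.27, 6.82, 38.6 and 77.3%, against 2.32, 5.17, 16.7 and 42.6% of all coding genes. For Nrf2 these shares lay near those of all coding genes.

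Every gene of the wider list had a peak in at least 1 library. HIF1α with iAs alone had one at 68.6% of all coding genes, and their shares for any library or all 4 were not computed. In all 4 libraries 6 genes of the wider list had a peak. These were PLK3, a stress-responsive kinase, SFN, which encodes 14-3-3σ and holds cells in G2, CCND3 and CDK6, a D-type cyclin and a kinase it activates, and the neighbours CDKN2A and CDKN2B, which encode inhibitors of that kinase and share peaks. PMAIP1, which encodes the BH3-only protein NOXA, was the 1 gene without a HIF1α peak with iAs, and had 2 Nrf2 peaks in control cells and 1 with iAs. Nrf2 peaks within 1 kb of the TSS were found at GADD45G in both conditions and at RBL1 and SKP2 with iAs. PMAIP1, GADD45G, RBL1 and SKP2 were named after their values had been seen.

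**Figure D5:**
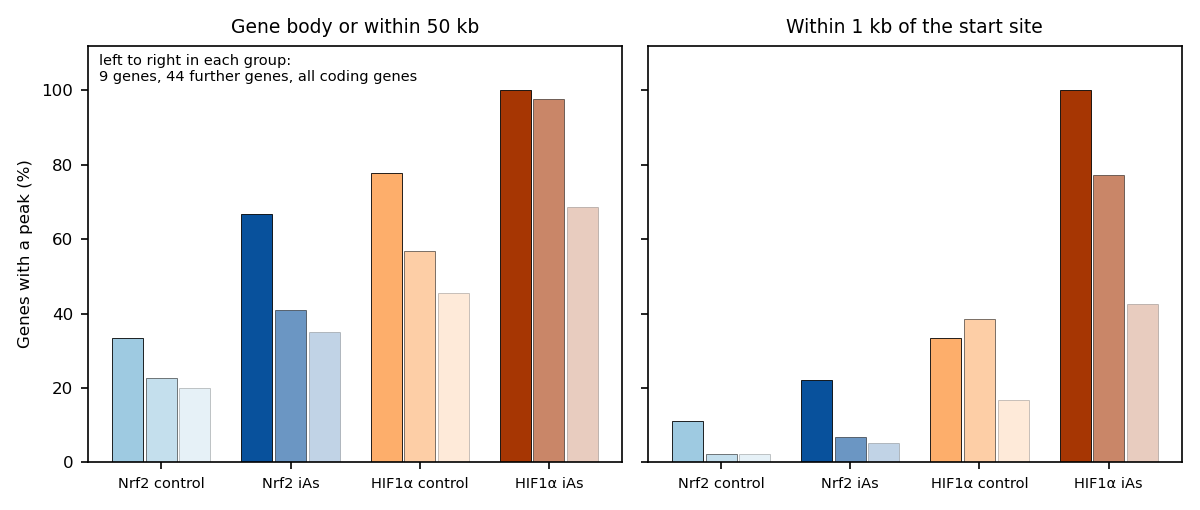
Share of genes with a peak (vertical axis, percent) in the gene body or within 50 kb (left) and within 1 kb of the start site (right) in each library, for the 9 genes, the 44 further genes and all 20163 coding genes from dark to light. For HIF1α with iAs the 9 genes stand at 100% in both panels and all coding genes at 68.6% and 42.6%.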

How the data were processed

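Nrf2 and HIF1α ChIP-seq was done on control and iAs-treated BEAS-2B cells. Per the labels the antibodies came from Santa Cruz (Nrf2) and Abcam (HIF1α), whereas the methods name Active Motif. The submitters' processing notes name BWA, MACS2 2.1.0 and hg19, and the methods describe down-sampling of usable tags and peak calling with MACS or SICER. The deposited intervals are base positions on hg19, called per library, with no height, score or depth. The authors' merged list was not used.

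Starts were converted to 1-based positions. Peaks overlapping a gene body with 50 kb on either side were counted in Python 3.11.15 with GENCODE 44 on GRCh37. Peaks overlapping by at least 1 bp were called shared. Motif matches on either strand were sought with pysam 0.24.0 up to 100 bp from the peak centre, intervals are Wilson 95% (SciPy 1.17.1), and plots used matplotlib 3.10.9. The steps for overlap by 1 bp, peaks in loci and at start sites, motif search and merging were tested on simulated data. No test between conditions was possible. The genes, lists and alternatives were chosen with earlier results of these data known. Named were the 9 genes, genes of the wider list with a peak in all 4 libraries or in none, and the nearest other coding gene of a peak. The alternatives were other distances, overlaps, list lengths, merging, starts and motif windows. The table of promoter sequences was of another build and was not used.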

Additional observations from a re-analysis of the deposited data

Results flagged for a closer look

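At MDM2 the counts of intervals as deposited differed in opposite directions between the factors. The number of Nrf2 peaks in the locus, iAs minus control, was 1, and the number of HIF1α peaks, iAs minus control, was -1. With 1 library per antibody and condition this difference was not tested, and it disappears when intervals less than 500 bp apart are merged, which leaves 1 interval in each of the 4 libraries. The HIF1α peak without a counterpart was the one in intron 1, where Nrf2 had a peak in both conditions. It also covered another annotated start of MDM2.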

How the results depend on the processing

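Of 106 values under alternative settings, 70 stayed near the reported value and 36 moved, each taken by itself. In what follows, values are in the order Nrf2 control, Nrf2 with iAs, HIF1α control and HIF1α with iAs where more than 1 is given. Within 10 kb in place of 50 kb, HIF1α control peaks were found at 4 genes with 6 peaks, of which 1 lacked an overlap with iAs. Within 2 kb they were found at 3 genes with 4 peaks, of which 1 lacked an overlap, HIF1α with iAs had 23 peaks, iAs peaks without a control overlap numbered 5 for Nrf2 and 20 for HIF1α, and 11 genes of the wider list had a Nrf2 peak with iAs. With the wider 50% of each list there were 3, 8, 4 and 24 peaks, HIF1α control peaks at 4 genes, and start site peaks of Nrf2 control at 0 genes and of HIF1α control at 1. With 3204 peaks per list there were 6, 5 and 10 peaks for the last 3 libraries. Start site peaks were then found at 1 gene for HIF1α control and 5 for HIF1α with iAs. Of the wider list 10, 9, 19 and 21 genes had a peak, against 20.0, 20.4, 31.5 and 33.9% of all coding genes. The Nrf2 count with iAs thus no longer exceeded that in control cells. Merging left 25 HIF1α peaks with iAs, 18 of them without a control overlap. With a reciprocal overlap of 50%, control peaks without an iAs overlap numbered 3 for Nrf2 and 7 for HIF1α, and 2 Nrf2 peaks with iAs overlapped HIF1α. With a gap of up to 1 kb, 4 Nrf2 peaks with iAs lacked a control counterpart and 9 lay by a HIF1α peak. Shares of the whole lists under the reciprocal and gap rules were not computed. For 10 kb, 2 kb, the wider 50% and merging, shares of all coding genes and of the whole lists were not computed either. In whole intervals TGACTCA was found in 100% and 46.2% of Nrf2 peaks (58.4% and 51.5% of the lists), and TGACNNNGC in 53.8% with iAs (44.2%). ACGTG and GCGTG were found in 32.5% and 57.5% of HIF1α peaks with iAs, against 33.9% and 61.1% of the list. Shorter distances, shorter lists and merging lower counts by construction, and longer windows raise them. A count restricted to peaks nearest to each gene's own start was added after seeing the data and gave 4, 9, 8 and 28 peaks. No paired analysis was possible because each group has 1 library. Whether the lists were called before or after the down-sampling of tags is not given in the sources used here, and the part of depth in the longer iAs lists was not tested.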
